A study of Mus musculus with 11 samples.

Results

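The cytosolic ribosomal protein genes were taken as every gene of the deposited table whose mouse symbol is Rpl or Rps followed by a number and at most one of the letters a, l or x, together with Rplp0, Rplp1, Rplp2 and Rpsa, with pseudogenes left out. This rule gave 80 of the 34866 genes in the table. Of these, 77 had enough counts to be tested, among 14889 tested genes in all. The samples were mouse gastric corpus mucosa profiled by bulk RNA sequencing of poly(A)-selected RNA. Wild-type control mucosa (n = 2) was set against ATP4B-DTR mucosa (n = 3), GIF-DTR mucosa (n = 3) and mucosa that carries both transgenes, GIF/ATP4B-DTR (n = 3). DTR stands for the diphtheria toxin receptor, and the lines were built so that acid-secreting parietal cells, which express Atp4b, and zymogen-secreting chief cells, which in the mouse express Gif, can be ablated. Values for the 3 lines are given in the order in which they were just named. The labels give no toxin dose, time, age or strain, do not say whether the controls received toxin, and do not say that the samples of a group came from separate animals, so p-values measure only the spread between these samples.

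Ribosomal proteins assemble with ribosomal RNA into the small and the large subunit of the ribosome, and nearly every one is needed in equal number, so their genes are usually expressed together at high level. Their mRNAs are short and most begin with a terminal oligopyrimidine (TOP) tract, a run of pyrimidines that starts with C at the cap and lets the mTOR pathway, through Larp1, set how strongly they are translated. Cells that grow or divide make more ribosomes, and dividing progenitors of the gastric gland lie in the isthmus between pit cells above and neck, parietal and chief cells below.

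The TOP tract is a sequence feature that the family is known for and that the rule did not use. RefSeq promoter entries (build GRCm38.p6) were matched by symbol for 60 of the 80 members. A C at the annotated start followed by at least 4 bases that are C or T was found in 13 of these 60 members (21.7%), against 3.01% of all genes with a promoter entry. A run of at least 7 such bases that begins with C within 5 bases of the annotated start was found in 22 members (36.7%), against 7.64% of all genes. A match describes the letters in the window and is not a mapped cap site. The 6 windows shown all come from the 13 members with a match at the annotated start, so they are not typical of the 60. They run from 20 bases before the start through the first 10 transcribed bases, with the pyrimidine run in capitals. They belong to a member of the small subunit that relays growth signals (Rps6), a stalk protein (Rplp2), members of the large subunit (Rpl38, Rpl28) and members that are taken up again below (Rps15a, Rps27).
Rps6, chr4:86857358-86857387, minus strand: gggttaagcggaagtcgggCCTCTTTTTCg
Rplp2, chr7:141447631-141447660, plus strand: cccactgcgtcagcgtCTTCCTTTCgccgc
Rpl38, chr11:114668560-114668589, plus strand: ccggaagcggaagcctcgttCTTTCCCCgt
Rpl28, chr7:4792945-4792974, plus strand: tcgtcccgcctctcgtgtCTCTCTTTCCgt
Rps15a, chr7:118116138-118116167, minus strand: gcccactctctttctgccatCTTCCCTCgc
Rps27, chr3:90213639-90213668, minus strand: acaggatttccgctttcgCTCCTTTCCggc

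A library held between 20.7 and 27.9 M counts, where M is mega. The top 10 genes took 25% and 32% of a control library but 15.2% to 20% of a line library. Levels are therefore given in CPM, counts per mega-count after TMM scaling, which sets libraries level on the trimmed mean of their log ratios. Atp4b ranged over 4360 to 4790 CPM among controls, then 475 to 683, 2140 to 3470 and 158 to 468 CPM in the lines. Gif ranged over 702 to 2300 CPM among controls, 332 to 824 CPM in ATP4B-DTR and 65.5 to 218 CPM in the other 6 libraries. All 8 proliferation markers examined, Mki67 and Top2a among them, were higher than control in each line. Y-linked genes summed to 129 and 151 CPM in the controls and to at most 4.07 CPM in all 3 GIF-DTR libraries, so the GIF-DTR genotype and the presence of Y-linked expression cannot be told apart in that comparison, and ATP4B-DTR held both kinds of library.

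Ribosomal protein genes took a larger share of the library in every line than in the controls. The members held 1.92% and 1.76% of all counts in controls 1 and 2. They held 4.35%, 4.0% and 3.81% in ATP4B-DTR 1 to 3, and 3.61%, 3.49% and 4.16% in GIF-DTR 1 to 3. In GIF/ATP4B-DTR 1 to 3 they held 4.2%, 5.54% and 4.33%. All 9 line libraries lay above both controls, and GIF/ATP4B-DTR 2 was the highest. The range of ATP4B-DTR overlapped those of the other lines, while the lowest GIF/ATP4B-DTR library lay just above the highest GIF-DTR library. The group means were 1.84 ± 0.117% (SD, n = 2), 4.05 ± 0.273% (SD, n = 3), 3.75 ± 0.357% (SD, n = 3) and 4.69 ± 0.739% (SD, n = 3). The 95% Wilson interval ran from 1.75% to 1.76% in control 2 and from 5.53% to 5.55% in GIF/ATP4B-DTR 2, and it covers counting error only. In bulk tissue a change in the makeup of cells and a change in RNA per cell cannot be told apart. When the other genes among the 50 most abundant were left out of the total, the group means were 3.17%, 5.73%, 5.28% and 6.39%. The balance of the subunits moved little: the ratio of large-subunit to small-subunit counts, with the stalk genes counted as large, was 1.45 in both controls and between 1.44 and 1.54 in the line libraries.

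**Figure D1:**
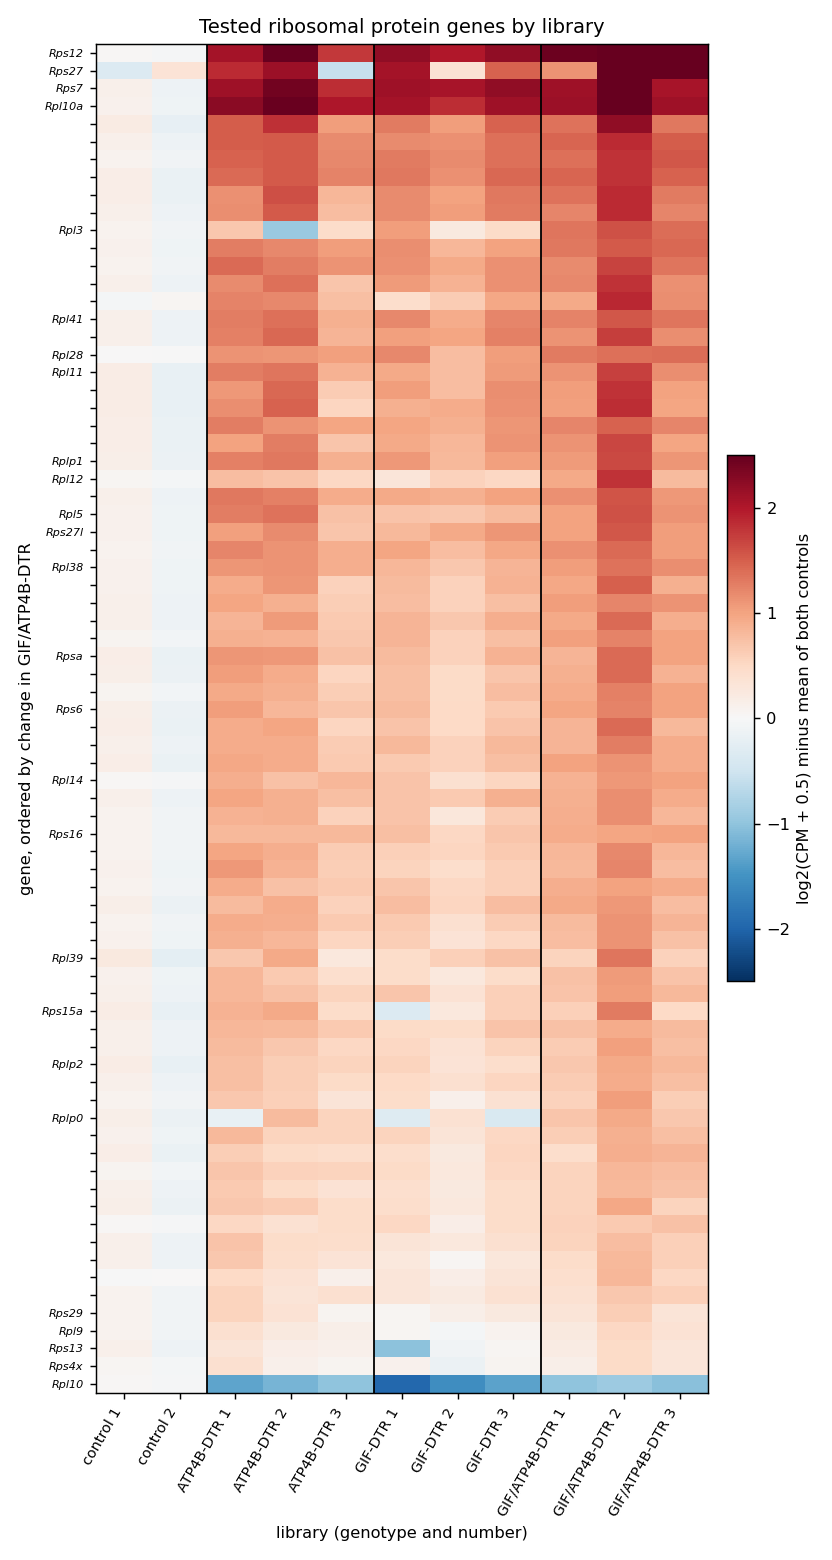
Heat map of the tested ribosomal protein genes, 1 left out (rows, ordered by their change in GIF/ATP4B-DTR, with names for genes given in the text), in the 11 libraries (columns). Colour is log2(CPM + 0.5) minus the mean of both controls, with values beyond 2.5 in either direction drawn at the end of the scale. Most rows are red in all 9 line libraries, Rpl10 is blue in all 9, and single libraries stand apart for Rpl3, Rps13, Rplp0 and Rps27.

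Against control, 61 members rose in ATP4B-DTR and 1 fell, by edgeR's quasi-likelihood test with a Benjamini-Hochberg adjusted p under 0.05, where 12.2% of all tested genes rose and 9.39% fell (21.6% in either direction). In GIF-DTR 44 rose and 1 fell, against 9.97% and 6.82% of all tested genes (16.8% together). In GIF/ATP4B-DTR 69 rose and 1 fell, against 18.2% and 15.4% of all tested genes (33.6% together). The 1 member that fell was Rpl10 each time. The median log2 fold change over the 77 members was 0.83, 0.66 and 1.07 in the 3 comparisons, which is 1.78-fold, 1.57-fold and 2.10-fold, while the median over all tested genes was -0.01, -0.01 and -0.04. These comparisons share the 2 control libraries. Without control 2, with the remaining control assumed to vary like the other groups, 21 members rose in ATP4B-DTR and 12 in GIF-DTR, where 3.51% and 2.72% of all tested genes rose. Without GIF-DTR 3, 24 members and 4.43% of all tested genes rose in GIF-DTR. With a Y-linked expression index as a covariate 11 members and 2.37% of all tested genes rose in GIF-DTR, and the member median was 0.84. Within control, GIF-DTR and GIF/ATP4B-DTR the index varied little, so the covariate rests mainly on ATP4B-DTR 1 (3.10) against ATP4B-DTR 2 and 3 (-3.46 and -3.69). The 8 proliferation markers summed to 258 to 345 CPM among controls and to 628 to 888, 638 to 861 and 771 to 944 CPM in the lines. The 9 parietal markers summed to 17100 to 18300 CPM among controls and to 3570 to 5010, 7870 to 10100 and 1280 to 2790 CPM, and 5, 4 and 8 of them fell. The 5 chief cell markers in the table summed to 71600 to 157000 CPM among controls and to 14300 to 50300, 4810 to 21800 and 2500 to 11300 CPM in the lines, and 0, 2 and 2 of the 4 tested fell. Plasma and B cell markers summed to 33.8 to 503 CPM among controls and to at most 26.8 CPM in any line library. The part of any of these in the rise of the members was not tested.

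Of the 31 small-subunit genes tested, 23, 18 and 26 rose in the lines, where 12.2%, 9.97% and 18.2% of all tested genes rose. The small-subunit medians were 0.86, 0.66 and 1.03. Rpsa, which sits at the back of the small subunit and also serves as a laminin receptor, had 780 and 613 CPM in controls 1 and 2, then 1489, 1456 and 1146 CPM in the ATP4B-DTR libraries, 1194, 1032 and 1266 CPM in the GIF-DTR libraries and 1238, 1836 and 1382 CPM in the GIF/ATP4B-DTR libraries. Every line library was above both controls, and the log2 fold changes were 0.97 (SE 0.22), 0.74 (SE 0.22) and 1.09 (SE 0.22), with edgeR adjusted p of 0.00966, 0.038 and 0.003. Rps6, the small-subunit protein that is phosphorylated when mTOR signalling is active, had 442.8 and 359.8 CPM in the control libraries and 829, 712 and 648 CPM in the ATP4B-DTR libraries. It had 695, 561 and 628 CPM in the GIF-DTR libraries and 788, 947 and 799 CPM in those with both transgenes. No line library overlapped the controls, and the changes were 0.86 (SE 0.18), 0.65 (SE 0.18) and 1.07 (SE 0.18) on the log2 scale, with edgeR adjusted p of 0.00622, 0.0288 and 0.00105. With its near-identical copies added (described below) the Rps6 change in GIF-DTR was 0.50, with an edgeR adjusted p of 0.0669.

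Of the 43 large-subunit genes tested, 36, 25 and 41 rose, where 12.2%, 9.97% and 18.2% of all tested genes rose. The large-subunit medians were 0.83, 0.67 and 1.08. Rpl11, which with Rpl5 and a ribosomal RNA forms a particle that can bind the ubiquitin ligase Mdm2, had 309 and 241 CPM in the control libraries and 664, 691 and 499 CPM in the ATP4B-DTR libraries. Its GIF-DTR libraries had 523, 468 and 573 CPM and its GIF/ATP4B-DTR libraries 595, 890 and 609 CPM. All 9 lay above both controls, and the log2 changes were 1.17 (SE 0.23), 0.92 (SE 0.22) and 1.34 (SE 0.23). Rpl5 rose by similar amounts, with log2 changes of 1.15 (SE 0.22), 0.73 (SE 0.21) and 1.27 (SE 0.22), but only 6.02% to 8.18% of the counts of Rpl5 and its near-identical copies lay on the Rpl5 row. With those copies added, the Rpl5 change in GIF-DTR was 0.64, with an edgeR adjusted p of 0.0752. On its own row Rpl5 had 33.8 and 28.9 CPM in the control libraries, then 76.2, 80.8 and 52.2 CPM with ATP4B-DTR, 51.37, 50.03 and 54.63 CPM with GIF-DTR and 63.4, 95.4 and 68.3 CPM with both. Rpl41, which encodes a very small basic peptide of the large subunit, had 538 and 452 CPM in the control libraries, 1194, 1283 and 914 CPM with ATP4B-DTR, 1140, 941 and 1144 CPM with GIF-DTR and 1161, 1453 and 1243 CPM with both. For both genes each line library was above the controls. The Rpl41 log2 changes were 1.19, 1.12 and 1.38, each with an SE of 0.20.

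The stalk, which recruits translation factors to the large subunit, is built from Rplp0 and pairs of Rplp1 and Rplp2. Of these 3 genes 2, 1 and 2 rose, where 12.2%, 9.97% and 18.2% of all tested genes rose. Rplp1 went from 512 and 418 CPM in the control libraries to 1107, 1148 and 861 CPM with ATP4B-DTR, 981, 816 and 948 CPM with GIF-DTR and 971, 1443 and 997 CPM with both. It rose in each line, by 1.16, 0.98 and 1.29 on the log2 scale (SE 0.22 each). Rplp2 rose in ATP4B-DTR (0.63, SE 0.15) and in GIF/ATP4B-DTR (0.80, SE 0.16), and its change in GIF-DTR was 0.44 with an edgeR adjusted p of 0.0725. Rplp0 passed the test in no line. Its control libraries had 911 and 736 CPM, its ATP4B-DTR libraries 720, 1421 and 1201 CPM, its GIF-DTR libraries 655, 1066 and 632 CPM and its GIF/ATP4B-DTR libraries 1323, 1574 and 1301 CPM. The log2 changes were 0.44 (SE 0.30), -0.07 (SE 0.29) and 0.76 (SE 0.30). ATP4B-DTR 1, GIF-DTR 1 and GIF-DTR 3 lay below both controls and the other 6 line libraries above them. In those 3 libraries 93.7%, 96.3% and 95.7% of the counts of Rplp0 and its matched pseudogenes were on its own row, against 99.9% or more elsewhere, and adding the pseudogenes left the GIF-DTR change at -0.04.

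Levels between genes were compared only per kilobase of the longest protein-coding transcript, averaged over the 11 libraries. Rplp1 (1859 CPM per kilobase) and Rpl41 (1791) were the highest tested members. The lowest tested members were Rps27 (14.3), Rpl12 (27.5) and Rpl5 (29.1). Near-identical copies held most of the counts for the 3 lowest: the own row of Rpl12 had 4.24% to 5.71% of the counts of Rpl12 and its matched pseudogenes, with 21.1 and 19.96 CPM in the control libraries and 25.5 to 73.4 CPM in the lines. The order of the lowest members is therefore an order of rows as counted, which need not be that of the genes' RNA.

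In the deposited counts, part of the joint counts of a ribosomal protein gene and its processed pseudogenes lay on the pseudogene rows. That part was not the same in control and line libraries. Whether it reflects how reads were placed or transcripts of the copies was not tested. Processed pseudogenes are intronless copies of an mRNA inserted elsewhere in the genome, and the ribosomal protein genes have more of them than almost any other family. By annotated type or by name, 550 pseudogene rows matched the coding transcript of 75 members. Each match had 95% identity or more over at least 80% of the row's transcript. Rpl10-ps3, Rps12-ps3 and Gm2000, a copy of Rpl35, are among these rows by name but are annotated as protein coding. The 550 rows held 14.2% of the counts of members and copies together in each control and 9.23% to 10.6% in the line libraries. 57 of the 77 tested members kept at least 90% of those counts on their own row in every library, 20 did not, and for 11 the own row fell under 50% in some library. For 10 members the mean own-row share differed by over 10 percentage points between controls and lines. The first 60 coding bases of Rps7 (chromosome 12, 28630854 to 28635953, minus strand) and of its pseudogene Gm6472 (chromosome X, 152909505 to 152910155, minus strand) show how little separates such a pair, with the differing bases in capitals; transcripts and positions of these pairs are those of GENCODE M21 on GRCm38.
Rps7: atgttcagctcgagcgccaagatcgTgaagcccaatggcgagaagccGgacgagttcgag
Gm6472: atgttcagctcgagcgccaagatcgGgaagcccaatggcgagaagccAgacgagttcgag
Over 651 aligned bases this pair differs at 4, and its longest stretch without a difference is 493 bases. A second pair is Rps13 (chromosome 7, 116331505 to 116334195, minus strand) and Rps13-ps1 (chromosome 8, 87047689 to 87048226, plus strand), shown for coding bases 370 to 429.
Rps13: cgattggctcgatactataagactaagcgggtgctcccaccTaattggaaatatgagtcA
Rps13-ps1: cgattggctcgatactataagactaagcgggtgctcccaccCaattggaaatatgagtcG
For Rpl10a and Rpl10a-ps1 (654 bases), Rps12 and Rps12-ps3 (494 bases) and Rpl10 and Rpl10-ps3 (740 bases) the aligned transcripts have 0 mismatches, so no read from within them can be placed by its sequence.

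Rps7, Rpl10a and Rps12, 3 of the members with the highest log2 fold changes, have such copies. Rps7, a small-subunit protein, went from 189 and 157 CPM in the control libraries to 746, 925 and 620 CPM with ATP4B-DTR, 747, 721 and 801 CPM with GIF-DTR and 755, 1121 and 721 CPM with both. These are log2 changes of 2.14, 2.13 and 2.32 (SE 0.24 each). Its own row held 50.9% and 51.1% of the counts of Rps7 and its copies in the controls and 95.3% to 99.9% in the lines, while Gm6472 had 4041 and 2702 counts in the controls and 0 to 907 in the lines. With copies added, the Rps7 changes were 1.21, 1.17 and 1.38. Rpl10a, a large-subunit protein, had 116 and 98.9 CPM in the control libraries, 516, 599 and 438 CPM with ATP4B-DTR, 453, 388 and 465 CPM with GIF-DTR and 477, 630 and 466 CPM with both. It had an own-row share of 37.5% and 37.9% in the controls and of 75.6% to 92.0% in the lines, and its log2 changes of 2.27, 2.02 and 2.28 became 1.08, 0.79 and 1.17. Rps12, at 11.1 and 10.7 CPM among controls and 38.5 to 83.4 CPM in the lines, had 2.73% and 3.39% of the joint counts on its own row in the controls and 7.06% to 11.4% in the lines. Its log2 changes of 2.22, 2.20 and 2.74 became 0.79, 0.57 and 0.92 with copies added.

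Rpl10, a protein of the large subunit placed late in its assembly and the only member that fell, went from 99.2 and 94.0 CPM in the control libraries to 38.3, 43.2 and 47.9 CPM with ATP4B-DTR, 24.3, 32.7 and 37.8 CPM with GIF-DTR and 47.6, 51.4 and 46.2 CPM with both. All 9 line libraries were below both controls, and the log2 changes were -1.16, -1.61 and -1.0 (SE 0.17 each), with edgeR adjusted p of 0.00112, 0.000697 and 0.00111. Its own row held 13.6% and 14.0% of the joint counts in the controls and 4.15% to 8.47% in the lines. With copies added, Rpl10 had 671 to 731 CPM among controls and 484 to 634 CPM in the lines, with log2 changes of -0.28, -0.39 and -0.17 and edgeR adjusted p of 0.167, 0.0668 and 0.342. Rpl3, an early-assembling protein near the catalytic centre, varied between libraries of 1 line: it had 505, 167 and 439 CPM with ATP4B-DTR, 660, 377 and 441.6 CPM with GIF-DTR and 804, 963 and 837 CPM with both, against 340 and 298 CPM in the control libraries. In ATP4B-DTR 2 the own row held 21.9% of the joint counts, and in GIF-DTR 1 and all 3 GIF/ATP4B-DTR libraries it held 99.9% or more. Its log2 changes of 0.22, 0.63 and 1.45 became 0.52, 0.31 and 0.69, and of these the first and the last passed the edgeR test (adjusted p = 0.0337 and 0.00613). Rps13 showed the same in 1 library: GIF-DTR 1 had 84.2 CPM against 157 to 239 CPM elsewhere, with 2799 counts on Rps13-ps1.

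**Figure D2:**
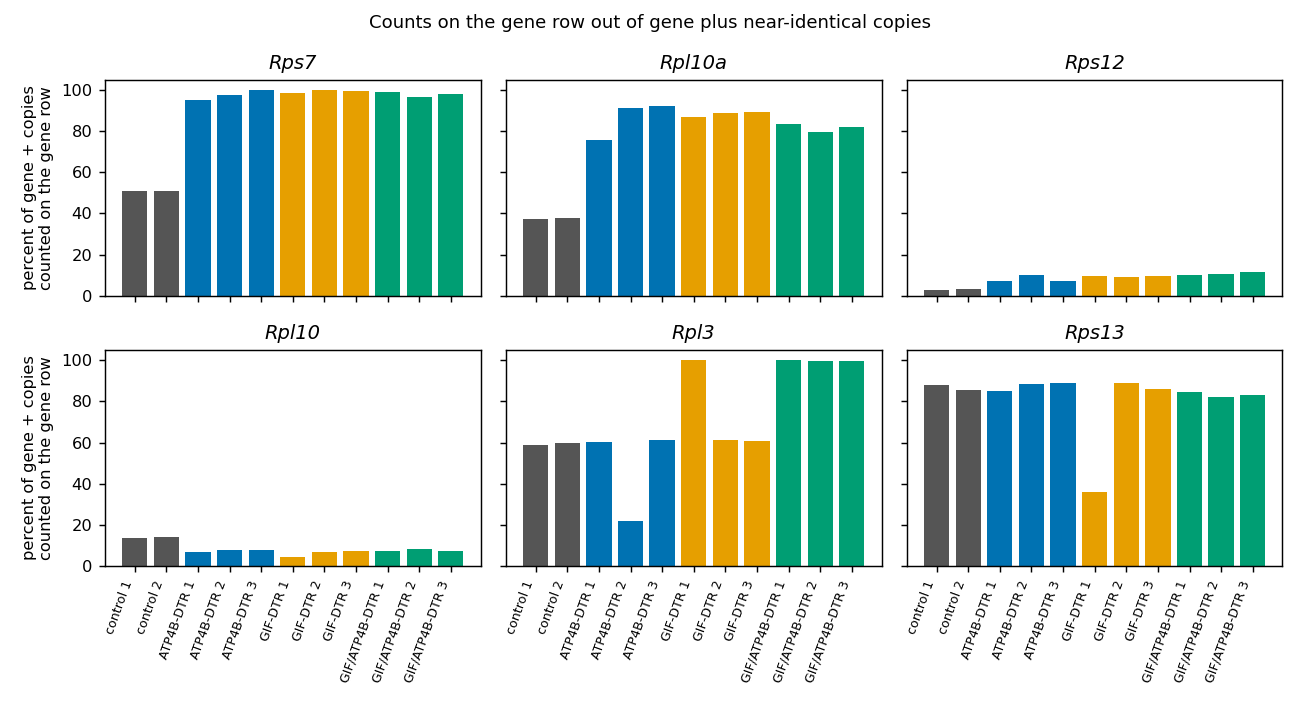
Percent of the counts of a gene and its matched near-identical copies that lie on the gene's own row, for 6 members in each of the 11 libraries (bars coloured by genotype, axis from 0). Rps7 rises from 50.9% and 51.1% in the controls to 95.3% or more in every line library and Rpl10a from 37.5% and 37.9% to 75.6% or more, while Rpl3 and Rps13 drop in single libraries.

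With the copies added the spread among members was narrower. 62, 41 and 69 members then rose and 0 fell by edgeR in the lines, where 12.2%, 9.95% and 18.2% of all tested genes rose and 9.38%, 6.78% and 15.3% fell. With copies added 69, 61 and 75 members had an unadjusted p under 0.05 in either direction, as had 34.8%, 31.3% and 44.5% of all tested genes, and as deposited DESeq2 called 1 member lower in each comparison. The medians were 0.82, 0.63 and 0.99. The SD of the member log2 fold changes went from 0.48 to 0.31 in ATP4B-DTR, from 0.52 to 0.34 in GIF-DTR and from 0.52 to 0.37 in GIF/ATP4B-DTR.

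**Figure D3:**
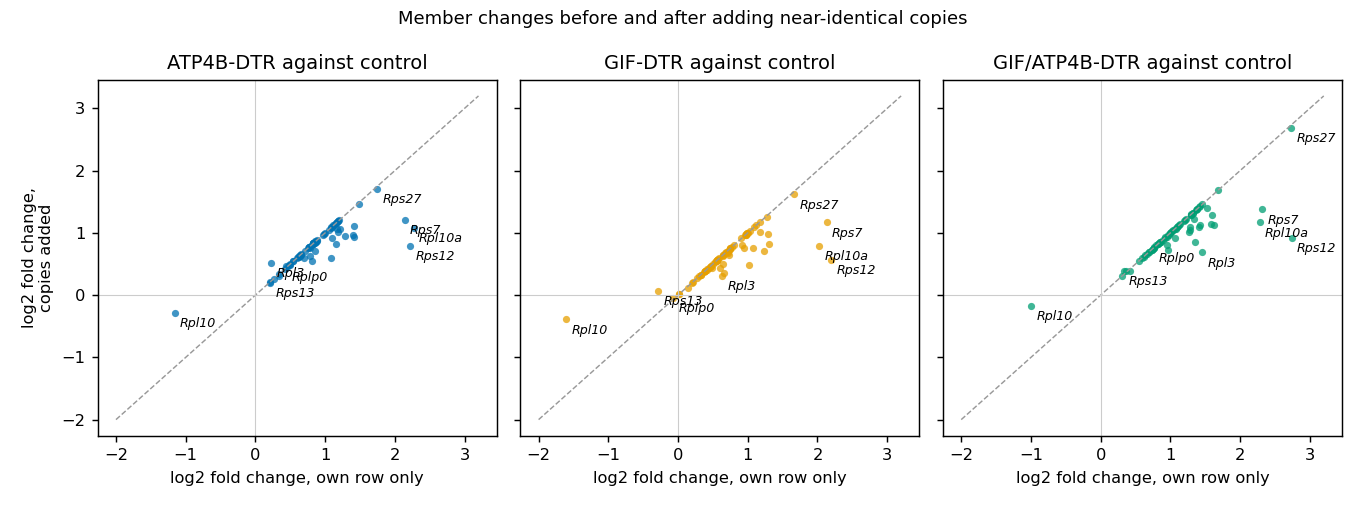
Log2 fold change against control of each of the 77 tested members from its own row (horizontal axis) and with the counts of its sequence-matched copies added (vertical axis), 1 panel per line. Points on the dashed line did not change, and Rps12, Rpl10a, Rps7 and Rpl10 move from the ends of the range toward the other members.

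Rps27 stayed high after this step, with log2 changes of 1.71, 1.62 and 2.69, but it had only 23 to 420 counts in any library and passed the test in no line. A retrogene annotated as protein coding, Rps27rt (chromosome 9, 114982366 to 114982739, minus strand), lies outside the rule. It was outside the pseudogene match because neither its type nor its name marks it as one, and was looked up after the Rps27 values were seen. Its transcript is identical to that of Rps27 over 341 aligned bases. It had 4737 and 3466 counts in the controls and 7142 to 14186 in the lines, so that Rps27 held 0.317% to 3.36% of the counts of both. Rps27rt rose by 0.89 (SE 0.25), 1.02 (SE 0.26) and 1.2 (SE 0.26) on the log2 scale, with edgeR adjusted p of 0.0291, 0.0211 and 0.00443. These values lie among those of the other members.

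Paralogues that replace a ribosomal protein in particular tissues were at or near 0 counts, except Rps27l. Rpl10l and Rpl39l, known from the male germ line, had 0 counts in all 11 libraries, which allows at most 3 counts or 0.107 to 0.166 CPM depending on the library. Rpl3l, known from striated muscle, had 0 to 5 counts in a library, and these 3 genes were not tested. Rps27l, a broadly expressed relative of Rps27 with no matched pseudogene, had 83.0 and 70.7 CPM in the control libraries, 157, 173 and 124 CPM with ATP4B-DTR, 135, 148 and 166 CPM with GIF-DTR and 155, 225 and 158 CPM with both, and no line library overlapped the controls. It rose in each line by 0.98, 0.96 and 1.22 on the log2 scale (SE 0.20 each), with edgeR adjusted p of 0.00645, 0.0104 and 0.00109. Rpl39, whose paralogue is Rpl39l, had 171 and 123 CPM in the control libraries and 174 to 368 CPM in the lines, above both controls in each. It rose in GIF/ATP4B-DTR (0.86, SE 0.27), with changes of 0.64 and 0.58 in ATP4B-DTR and GIF-DTR that did not pass the test (edgeR adjusted p = 0.118 and 0.171).

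Besides Rpl10, Rplp0, Rps13 and Rps27, the members that rose in no line were Rpl9, Rps15a, Rps29 and Rps4x. Rps4x, encoded on the X chromosome, had 491 and 455 CPM in the control libraries, 626, 519 and 493 CPM with ATP4B-DTR, 506, 429 and 492 CPM with GIF-DTR and 523, 655 and 581 CPM with both. The ATP4B-DTR and GIF/ATP4B-DTR libraries lay above both controls and the GIF-DTR libraries on either side of them, with log2 changes of 0.21, 0.01 and 0.31 (SE 0.16 each). With the length trend described next taken out, those changes were -0.10, -0.30 and -0.07. Rps15a had 218 and 167 CPM in the control libraries, 150 CPM in GIF-DTR 1 and 229 to 472 CPM in the other line libraries. The Rps15a changes were 0.77 (SE 0.31), 0.21 (SE 0.30) and 0.84 (SE 0.31), with edgeR adjusted p of 0.102, 0.689 and 0.0583.

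Changes against control followed gene length, with short genes higher, so the members were compared with other genes by length. Among the 11312 other tested genes with an annotated length in the members' range of 383 to 5179 bases, the medians were 0.06, 0.05 and 0.06, and among the 2678 of these with at least 50 CPM they were 0.07, 0.00 and 0.11. The upper bound of that range is the longest annotated coding transcript of Rps15a, so the range takes in most tested genes and is not limited to short ones. Narrower bins of coding length follow. Within 500 to 1000 bases of longest protein-coding transcript, 35 members had medians of 0.82, 0.65 and 1.04, and 183 other genes of at least 50 CPM had medians of 0.31, 0.31 and 0.45. Of those 183 genes, 29.5%, 22.4% and 43.2% rose in the lines, against 85.7%, 54.3% and 94.3% of the 35 members. Within 1000 to 1500 bases, 21 members had medians of 0.81, 0.56 and 0.96 against 0.32, 0.24 and 0.45 for the other genes of at least 50 CPM. Among transcripts of 2000 bases or more, 6 members had medians of 0.97, 0.72 and 1.2, while 2646 other genes of at least 50 CPM had medians of -0.07, -0.14 and -0.06. Across the 77 members the log2 fold change was only weakly related to coding length, as a description, since the members share libraries. Spearman's rho was -0.16, -0.19 and -0.12 on own rows and -0.21, -0.24 and -0.19 with copies added.

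**Figure D4:**
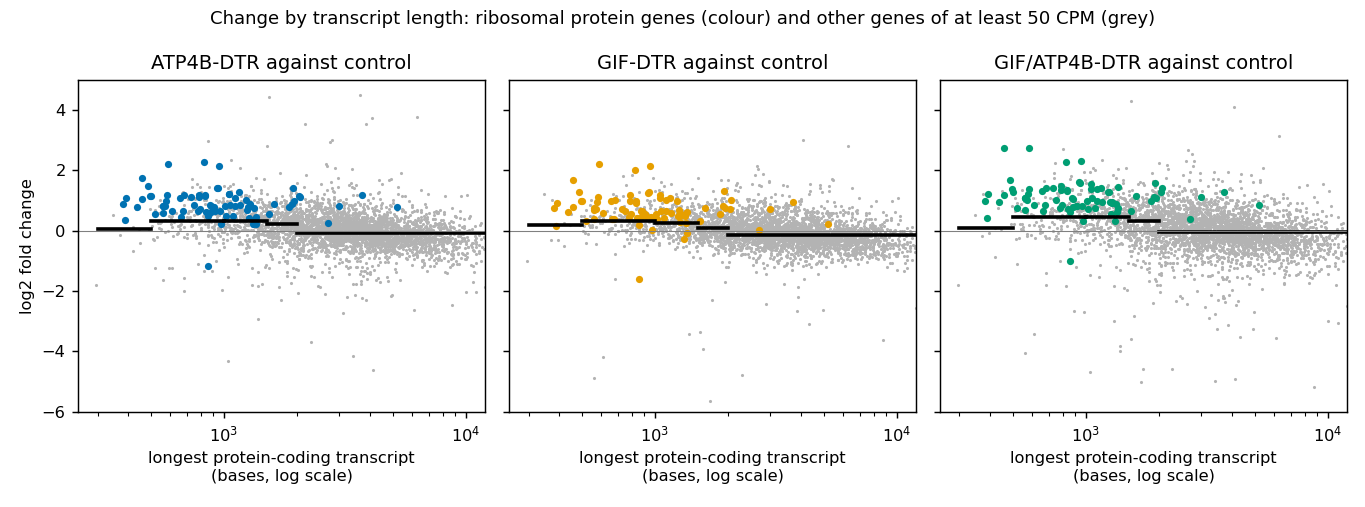
Log2 fold change against control (vertical axis) by length of the longest protein-coding transcript (horizontal log axis, bases) for the 77 tested ribosomal protein genes (colour) and other genes of at least 50 CPM (grey), 1 panel per line. Black bars are medians of the grey genes in 5 length bins: they lie above 0 below 2000 bases and below 0 beyond, and most coloured points lie above them in every bin.

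A trend of each library on gene length, taken over genes that are no members, was then removed as an offset in the same fit. Length here was that of the longest transcript of any type, not the coding length of the bins above. These lengths can differ, as for Rpl30 (2412 against 886 bases), so the offset need not remove the whole trend on coding length. 51, 29 and 60 members still rose and 1 fell in each comparison, where 11.2%, 8.64% and 17.6% of all tested genes rose and 8.27%, 5.32% and 13.8% fell. The medians were 0.62, 0.39 and 0.72, which is 1.54-fold, 1.31-fold and 1.65-fold. The medians of the 183 other genes of 500 to 1000 bases went to 0.04, 0.05 and 0.12 in this fit, and those of all tested genes lay between -0.02 and 0.00. With copies added in the same fit, 49, 21 and 60 members rose, where 11.1%, 8.54% and 17.5% of all tested genes rose, and the member medians were 0.57, 0.35 and 0.68.

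Other gene lists were read beside the members. Of all tested genes 12.2%, 9.97% and 18.2% rose in the lines and 9.39%, 6.82% and 15.4% fell. Ribosome biogenesis factors, whose transcripts are long (median 2804 bases), changed in the range of the members: 32, 29 and 41 of 49 rose and 0 fell. Their medians were 0.75, 0.73 and 1.09, and with the length offset 0.69, 0.73 and 1.07. Taf1d, a subunit of the RNA polymerase I initiation factor, rose most (1.68, 1.69 and 2.08), with Nop56 of the box C/D particles (1.43, 1.68 and 1.90) and Nhp2 of the box H/ACA particles (1.40, 1.34 and 1.94). Mitochondrial ribosomal proteins rose in 49, 32 and 58 of 78 genes, with medians of 0.61, 0.49 and 0.74. Mrpl12 rose in each line, by 1.35, 1.08 and 1.46. Spliceosomal small proteins rose in 16, 16 and 20 of 26 genes (medians 0.87, 0.79 and 1.11), with Lsm5 at 1.81, 1.76 and 2.33, and proteasome subunits in 21, 16 and 32 of 37 (medians 0.59, 0.43 and 0.74).

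The respiratory chain was set beside the members as another list of short genes, not matched gene by gene. Its 79 tested subunits have a median transcript of 865 bases, against 914 for the members. Among these subunits 5, 3 and 6 rose and 4, 1 and 10 fell, with medians of 0.07, 0.07 and 0.00. Of all tested genes 12.2%, 9.97% and 18.2% rose and 9.39%, 6.82% and 15.4% fell. Ndufb4 of complex I rose in each line (1.09, 1.10 and 1.06), and Cox7a1 of the terminal oxidase fell in ATP4B-DTR (-2.31) and GIF/ATP4B-DTR (-2.99). Taking out the length trend, 17, 16 and 33 of the subunits fell, where 8.27%, 5.32% and 13.8% of all tested genes fell. The subunit medians were then -0.15, -0.18 and -0.29. Parietal cells are rich in mitochondria, and their markers moved as given above; their part in these values was not tested.

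**Figure D5:**
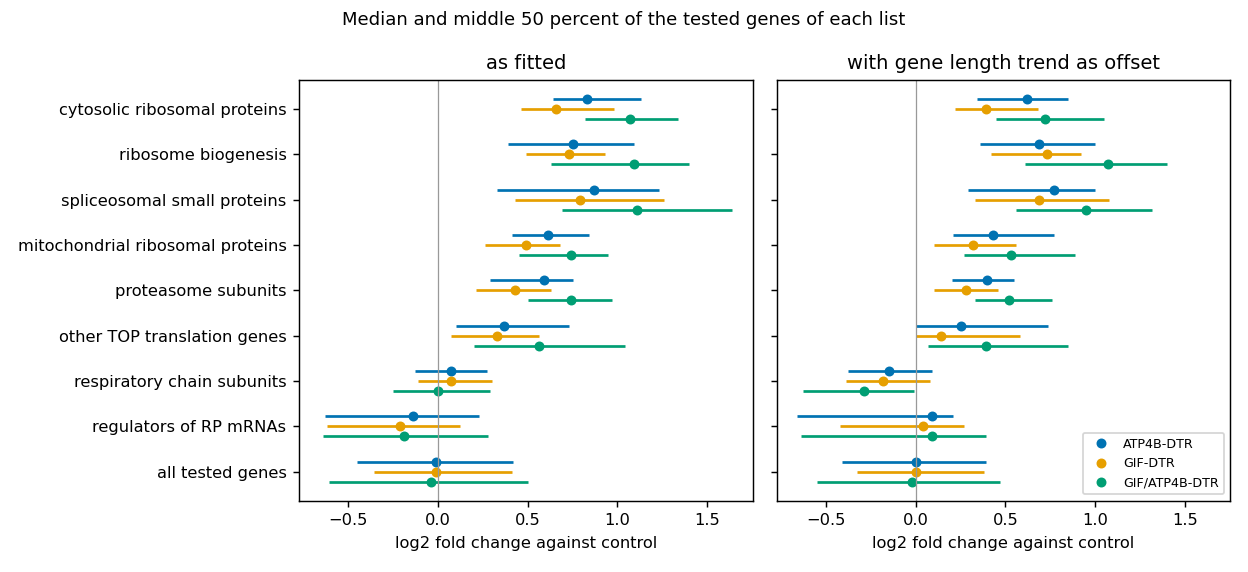
Median (point) and middle 50 percent (line) of the log2 fold change against control in each gene list, by line, as fitted (left) and with the gene length trend as an offset (right); TOP is terminal oligopyrimidine and RP is ribosomal protein. Cytosolic ribosomal proteins and ribosome biogenesis factors lie to the right of all tested genes in both panels, while the respiratory chain medians lie between -0.29 and 0.07.

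Ribosome components and translation factors outside the rule gave a mixed result. Of 7 tested neighbours that the naming rule misses, 6, 4 and 6 rose, where 12.2%, 9.97% and 18.2% of all tested genes rose. Fau, which fuses a ubiquitin-like protein to a small-subunit protein, rose by 1.71, 1.81 and 1.90 on the log2 scale (SE 0.17 each). Of 20 tested translation genes with a TOP mRNA beyond the members, a list that includes Fau and Rack1, 9, 5 and 11 rose, with medians of 0.37, 0.33 and 0.56. Eef2, the translocation factor, fell in GIF/ATP4B-DTR (-0.52, SE 0.15, edgeR adjusted p = 0.0228), and Eef1a1 had changes of 0.00, -0.18 and -0.03 that did not pass the test. Among members, those with the exact TOP start had medians of 0.86, 0.65 and 1.07 (13 tested), and the matched members without it 0.86, 0.72 and 1.10 (44 tested).

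Of 21 tested regulators of ribosomal protein mRNAs and of their translation, 1, 1 and 4 rose and 3, 4 and 6 fell, where 12.2%, 9.97% and 18.2% of all tested genes rose and 9.39%, 6.82% and 15.4% fell. Mtor, the kinase that drives TOP translation, fell in each line, by 1.19 (SE 0.15), 0.62 (SE 0.15) and 1.56 (SE 0.15) on the log2 scale, and its inhibitors Tsc2 (-0.86, -0.79 and -1.25) and Ddit4 (-1.03, -0.65 and -0.97), named after their values were seen, fell as well. Atf4, a stress transcription factor, rose in ATP4B-DTR (0.58) and GIF/ATP4B-DTR (0.84), and its target Chac1 fell in GIF-DTR (-2.91) and GIF/ATP4B-DTR (-3.0). Myc, which activates ribosomal protein and biogenesis genes, rose in GIF/ATP4B-DTR (0.65, SE 0.18, edgeR adjusted p = 0.0163), and its changes of 0.48 in ATP4B-DTR and 0.55 in GIF-DTR had edgeR adjusted p of 0.0751 and 0.0561. Larp1, which binds the TOP cap, had changes of -0.14, -0.21 and -0.05 that did not pass the test.

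Between the lines, which share libraries across these comparisons, 0 members passed the edgeR test. In GIF-DTR against ATP4B-DTR 0.403% of all tested genes were higher and 0.0873% lower (0.49% together). In GIF/ATP4B-DTR against ATP4B-DTR 0.0% passed in either direction, and against GIF-DTR 0.336% were higher and 2.19% lower (2.53% together). At an unadjusted edgeR p under 0.05 the counts were 2, 5 and 40 members, where 9.81%, 10.4% and 18.0% of all tested genes passed. The DESeq2 Wald test called 0, 1 and 12 members, and 2.58%, 1.91% and 6.9% of the genes to which it gave an adjusted p. The 1 gene was Rpl3 (log2 change 1.24), whose split with Rpl3-ps1 differed between these libraries, and its edgeR change with copies added was 0.17. The 12 included Rpl14 (0.44), Rps16 (0.32) and Rplp0 (0.84), named after their values were seen. The median log2 differences were -0.18, 0.18 and 0.35, and in both comparisons with GIF/ATP4B-DTR the change was positive in 77 of 77 members, against 50% and 51.2% of all tested genes. With the length offset the medians were -0.19, 0.09 and 0.28. The second and the last then had 70 and 77 members positive, against 51.0% and 51.7% of all tested genes. Y-linked expression was present in all 3 GIF/ATP4B-DTR libraries and near 0 in all 3 of GIF-DTR, so that it and the genotype cannot be told apart there either. With the Y-linked covariate, which rests mainly on the ATP4B-DTR libraries as given above, the medians were -0.11, 0.10 and 0.21. The second and the last then had 63 and 76 members positive, against 52.6% and 51.3% of all tested genes. Without GIF/ATP4B-DTR 2 the second and the last median were 0.05 and 0.23, with 55 and 75 members positive, and without ATP4B-DTR 3 the second was 0.09. The first was -0.10 without ATP4B-DTR 1 and -0.11 without GIF-DTR 2. The lowest edgeR adjusted p of a member was 0.0626, for Rpl10 between GIF/ATP4B-DTR and GIF-DTR (log2 difference 0.61), and with copies added it was 0.351 (0.22).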

How the data were processed

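RNA from gastric corpus mucosa was extracted on columns and sequenced as strand-specific, poly(A)-selected libraries, per the labels' protocols. The authors deposited 1 table of estimated counts per gene for all 11 samples. They were taken for expected counts because 30.7% of the nonzero entries are fractional. The mm10 build comes from the submitters' processing notes, and the aligner, the quantifier and the annotation are not given in the sources used here. The tests had been planned for whole-number counts, so expected counts were rounded first.

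The members, the other gene lists and the alternatives were chosen with earlier results of these data known. Samples were grouped by genotype label, and replicate numbers pair no samples. In R 4.3.3, edgeR 4.0.16 (filterByExpr, TMM, robust quasi-likelihood fit over all 4 groups) was fitted to all genes, with Benjamini-Hochberg adjustment over the 14889 tested. The standard error is the log2 fold change divided by the square root of F. Depth was 20.7 to 27.9 M counts, and 3 counts correspond to 0.107 to 0.166 CPM, which covers counting error only. On simulated counts with 200 genes changed 2-fold in GIF-DTR against control, among 14889 genes, 31% were recovered and 7.5% of calls were false.

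Values by sample were given for the stalk genes, Rpsa, Rps6, Rpl5, Rpl11, the paralogue pairs, the 3 members at each end of log2 fold change in a comparison with control or between GIF-DTR and ATP4B-DTR, and the 3 at each end of CPM per kilobase; some are given as ranges, and some genes are not reported here. Transcripts of GENCODE M21 for rows that are pseudogenes by type or by name were matched to members by blastn. The alternatives were other scalings, a gene length offset, other filters, no robust moderation, a Y-linked index as covariate, pseudogene counts added by name, only the groups compared, DESeq2 1.42.0 and leaving out each sample. Adding copies by sequence, alone and with the length offset, was chosen after seeing the data.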

Additional observations from a re-analysis of the deposited data

How the results depend on the processing

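No paired analysis was possible because the replicate numbers of the lines follow accession order and tie no samples together. Against control, the member median kept its direction under every alternative run. In the order ATP4B-DTR, GIF-DTR, GIF/ATP4B-DTR it was 1.14, 1.02 and 1.40 with library totals only (where the median of all genes moved to 0.30, 0.35 and 0.28), 0.62, 0.39 and 0.72 with the length offset, and 0.57, 0.35 and 0.68 with copies added as well. With the Y-linked covariate it was 0.84 in GIF-DTR. Members called in GIF-DTR in either direction numbered 70 with library totals only, 12 with the Y-linked covariate and 22 with copies and the length offset, where 28%, 3.22% and 13.8% of all tested genes were called. The DESeq2 Wald test called 1 member between GIF/ATP4B-DTR and ATP4B-DTR and 12 between GIF/ATP4B-DTR and GIF-DTR.

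Leaving out each sample in turn gave 22 to 65 calls in ATP4B-DTR, 13 to 53 in GIF-DTR and 58 to 71 in GIF/ATP4B-DTR, and 0 between lines. The 25 calls in GIF-DTR came without GIF-DTR 3, where 7.34% of all tested genes were called. Without control 2 the lone control is assumed to vary like the other groups, and the member medians were 0.73, 0.55 and 0.93. Medians ranged over 0.73 to 0.98, 0.55 to 0.81 and 0.93 to 1.19 against control, and over -0.26 to -0.10, 0.05 to 0.25 and 0.23 to 0.43 for GIF-DTR against ATP4B-DTR, GIF/ATP4B-DTR against ATP4B-DTR and GIF/ATP4B-DTR against GIF-DTR.

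The mean share of counts was 3.17%, 5.73%, 5.28% and 6.39% in control and the lines when the other genes among the 50 most abundant were left out. It was 2.02% in control with named pseudogenes added, and 2.14%, 4.52% and 4.16% in control, ATP4B-DTR and GIF-DTR with sequence-matched ones. Some changes that had not passed the test reversed sign. Rplp0 was at -0.10 in ATP4B-DTR with the Y-linked covariate and at 0.30 in GIF-DTR with library totals only. Rps13 in GIF-DTR was at 0.10 with library totals only and at 0.07 with pseudogenes added by name or by sequence. Rps4x with the length offset was at -0.10, -0.30 and -0.07, and at -0.10, -0.31 and -0.08 with copies added as well. Its GIF-DTR value was -0.01 with DESeq2 size factors and with the DESeq2 Wald test. Leaving out 1 sample, Rpl3 in ATP4B-DTR ranged over -0.08 to 0.57, and in GIF-DTR Rplp0 over -0.36 to 0.09, Rps15a over -0.03 to 0.43 and Rps4x over -0.05 to 0.08. The cause of these shifts was not tested. Of the values of the 21 tested members chosen by rule, over all alternatives and the comparisons with control, 1454 kept direction and side of the threshold, 35 gained the call, 65 lost it and 21 reversed. Depth limits the members at 0 counts to the floor given above.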
